A study of Homo sapiens with 3 samples.

Results

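The CEACAM family, cell adhesion molecules related to carcinoembryonic antigen, was followed in a human colon carcinoma line treated with tumour necrosis factor alpha (TNF), with doxycycline, or with both. The members were 8 genes chosen by name (CEACAM1, CEACAM3, CEACAM5, CEACAM6, CEACAM7, CEACAM8, CEACAM19 and CEACAM21), matched by current symbol to the annotation of the array probes. All 8 had a probe, 9 probes in all among 24460 gene probes, and 8 of the 9 passed the filter on dim probes, so that each of the 8 genes had a ratio among 14529 genes measured. CEACAM21 alone had a pair of probes, of which 1 was too dim to pass.

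The cells were LS174T-tetON-NICD, made from the colon carcinoma line LS174T so that doxycycline induces NICD, the intracellular part of the Notch receptor that acts in the nucleus. Cultures received TNF at 50 ng/ml, doxycycline at 100 ng/ml, or the combination, each for 24 h, and the control was untreated cells of the same line. Each treated culture, labelled with Cy3, was hybridised against untreated control RNA, labelled with Cy5, on 1 array (the TNF array, the doxycycline array and the combined array). With 1 culture and 1 array per condition and no dye swap, no p-value can be given and the spread between cultures is unknown. No sample received doxycycline without the NICD construct, so doxycycline and NICD cannot be told apart, and the labels do not say whether the line is 1 clone.

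CEACAM proteins are immunoglobulin-fold glycoproteins at the cell surface that bind each other on neighbouring cells. CEACAM5 (carcinoembryonic antigen, a serum marker of colorectal cancer), CEACAM6, CEACAM7 and CEACAM8 are held in the membrane by a glycosylphosphatidylinositol (GPI) anchor, whereas CEACAM1 and CEACAM3 span the membrane and signal through tyrosine motifs in their tails. In the colon, CEACAM1, CEACAM5, CEACAM6 and CEACAM7 belong to the apical surface of epithelial cells, while CEACAM3 and CEACAM8 are known from granulocytes.

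All 8 genes lie on chromosome 19. Promoter windows from RefSeq (GRCh38.p14, 250 bases before to 50 after the start of the gene) were found for 7 of the 8 genes. They are shown for CEACAM6, CEACAM5, CEACAM7 and CEACAM3, whose ratios passed 2-fold on some array, and for CEACAM1, the epithelial member with a signalling tail. Capitals mark the core of RBPJ, the DNA-binding partner of NICD (TGGGAA), the E-box CACGTG, and an element of interferon regulatory factors (GAAA, any 2 bases, GAAA), each searched on both strands.
CEACAM6 (chr19:41755280-41755579, + strand): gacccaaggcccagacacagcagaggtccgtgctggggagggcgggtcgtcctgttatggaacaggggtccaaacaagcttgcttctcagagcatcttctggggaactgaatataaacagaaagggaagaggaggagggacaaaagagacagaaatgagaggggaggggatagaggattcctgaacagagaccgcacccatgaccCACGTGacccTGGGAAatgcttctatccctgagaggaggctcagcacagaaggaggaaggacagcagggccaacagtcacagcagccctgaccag
CEACAM5 (chr19:41708376-41708675, + strand): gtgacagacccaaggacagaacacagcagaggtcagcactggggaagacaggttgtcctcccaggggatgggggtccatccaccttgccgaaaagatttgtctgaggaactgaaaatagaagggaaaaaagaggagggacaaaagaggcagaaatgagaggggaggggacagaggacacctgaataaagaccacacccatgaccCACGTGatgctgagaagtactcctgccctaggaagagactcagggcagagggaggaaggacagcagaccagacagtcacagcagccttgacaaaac
CEACAM7 (chr19:41688221-41688520, - strand): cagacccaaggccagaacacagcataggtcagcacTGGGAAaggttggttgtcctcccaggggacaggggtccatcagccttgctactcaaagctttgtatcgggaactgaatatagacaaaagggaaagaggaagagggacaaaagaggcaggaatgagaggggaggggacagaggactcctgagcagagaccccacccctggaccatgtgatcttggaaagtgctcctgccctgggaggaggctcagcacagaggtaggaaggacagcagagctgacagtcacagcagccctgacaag
CEACAM3 (chr19:41796337-41796636, + strand): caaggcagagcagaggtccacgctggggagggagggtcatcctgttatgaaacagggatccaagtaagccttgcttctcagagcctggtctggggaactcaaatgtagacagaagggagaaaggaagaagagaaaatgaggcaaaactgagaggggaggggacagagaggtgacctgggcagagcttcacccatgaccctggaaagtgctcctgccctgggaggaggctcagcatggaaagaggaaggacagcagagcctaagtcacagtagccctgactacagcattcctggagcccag
CEACAM1 (chr19:42528432-42528731, - strand): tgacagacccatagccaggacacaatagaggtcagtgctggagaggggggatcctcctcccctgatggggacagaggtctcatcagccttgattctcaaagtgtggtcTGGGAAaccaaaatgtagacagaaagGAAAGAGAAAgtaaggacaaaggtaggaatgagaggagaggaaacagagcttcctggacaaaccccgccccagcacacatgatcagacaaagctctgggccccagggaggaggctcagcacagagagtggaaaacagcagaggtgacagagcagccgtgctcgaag

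The windows are related: 249 of 294 aligned bases were identical between CEACAM7 and CEACAM5 (84.7%), 229 of 278 between CEACAM6 and CEACAM3 (82.4%), and 206 of 286 between CEACAM5 and CEACAM1 (72.0%). The E-box stood at the same place in CEACAM5 and CEACAM6, 46 and 45 bases before the start. Over all promoter windows, 7.26% held that E-box. TGGGAA was found in CEACAM6, CEACAM7, CEACAM1 and CEACAM8, against 24.0% of all windows, and in CEACAM6 it lay 35 bases before the start, next to the E-box. The interferon regulatory element was found in CEACAM1 alone of the 7 genes, 116 bases before the start, against 3.57% of all windows. No window of these genes held the NF-kB consensus, which was present in 5.91% of all windows. A match describes the letters of the window and not a bound site.

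The treatments were visible in known target genes: TNFAIP3, a feedback inhibitor induced by TNF, stood at log2 ratios of 3.48 (TNF), 0.17 (doxycycline) and 3.01 (both), and HES5, a Notch target, at -0.20, 3.13 and 3.72. Not every TNF target kept its level when doxycycline was present: CXCL8, the neutrophil-attracting chemokine interleukin 8, stood at 5.22 with TNF, -0.42 with doxycycline and 0.51 with both, which is 0.93 on top of doxycycline. All 11 measured colon epithelium markers, among them EPCAM, CDX2 and VIL1, were above background in the control channel of every array. However, 5 of them were at least 2-fold lower with TNF alone (median -0.71), where 12.3% of all genes were. With doxycycline and with both 0 of them were lower, against 0.406% and 2.13% of all genes. TNF-treated signals differed from the rest of the study. Among 9168 probes with a control signal above 100 on every array, TNF alone left 851 (9.28%) at a ratio 4-fold or more below control, doxycycline 6 and the combination 29. Log2 ratios from different probes of 1 gene scattered by an SD of 0.739 there (1747 genes), compared with 0.241 for doxycycline and 0.295 for the combination. TNF was therefore also read without that array, as the combined ratio less the doxycycline ratio (TNF on top of doxycycline). The control channels differed little between arrays: for the 8 members the control signal on the log2 scale ranged by 0.073 (CEACAM8) to 0.41 (CEACAM21) over the 3 arrays after each array was centred on its median. The labels do not say whether these controls are 1 RNA or several, so this range may hold array and labelling differences alone and is no measure of the spread between treated cultures.

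Signals below are spot intensities less the mean of the blank spots. A log2 ratio is treated over control after normalisation, relative to the bulk of probes of like brightness. It is not the plain quotient of the signals. The Cy3 channel was brighter for most probes on the doxycycline and combined arrays, whereas Cy3 and Cy5 were close to balance on the TNF array. A gene counts as higher or lower when its ratio is at least 2-fold.

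CEACAM6 was the member that stood highest with doxycycline. Its control signal was 2164 beside TNF, 1755 beside doxycycline and 1901 beside both, and the treated signal was 5887, 8546 and 8064 in the same order. The treated signal thus exceeded the control on every array and was lowest with TNF alone. The TNF array was dimmer in Cy3 as a whole (median treated signal 70.0, against 121 with doxycycline and 126 with both). Treated signals therefore do not compare directly between arrays. The log2 ratios were 0.72 (1.65-fold) with TNF, 1.36 (2.57-fold) with doxycycline and 1.24 (2.36-fold) with both. With doxycycline, CEACAM6 was above 99.4% of all genes, and it was the only 1 of the 8 members at least 2-fold higher, a call shared by 1.18% of all genes. TNF on top of doxycycline gave -0.12, and 0.24 with the scanner's local background, so that its sign depended on the processing. With TNF alone the ratio rested on the processing: 1.39 with median centring and 1.53 in the authors' deposited table, both past 2-fold. In the deposited table CEACAM6 stood at 1.42 with doxycycline and 1.18 with both, below its TNF value.

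CEACAM5, the antigen itself, was lower on the TNF array. Its control signal was 1615 (TNF), 1447 (doxycycline) and 1473 (both), and the treated signal was 570, 2331 and 1688. Only the TNF-treated sample lay below its control in signal. The log2 ratio was -1.93 (3.81-fold lower) with TNF, -0.21 with doxycycline and -0.61 (1.53-fold lower) with both. On top of doxycycline, TNF gave -0.40, in the same direction as TNF alone and at less than 2-fold, with no spread between cultures to set it against. CEACAM5 and CEACAM19 were the members with a ratio below 0 on all 3 arrays. The sign of the doxycycline value of CEACAM5 depended on the processing, at 0.32 with median centring and 0.056 with the scanner's local background.

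CEACAM7, which is lost early in colorectal tumours, had control signals of 334, 281 and 296 and treated signals of 18.3, 431 and 574. The TNF-treated signal lay just above the blank spots while the others were above their controls. Its log2 ratio was -2.27 (4.82-fold lower) with TNF, -0.20 with doxycycline and 0.11 with both. The TNF value was -4.11 in the authors' deposited table and -1.44 with the scanner's local background, past 2-fold in each. TNF on top of doxycycline gave 0.31, so that the 2 readings of TNF pointed in opposite directions.

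CEACAM8, the remaining GPI-anchored member, was dim. Its control signals were 47.6, 43.0 and 41.1, and the treated signals 17.0, 113 and 151. The log2 ratios were -0.35, 0.35 and 0.60 (1.51-fold), all short of 2-fold. Its control signals lay below the offset of 50, which draws these ratios towards 0. With an offset of 16 the values were -0.60 with TNF and 0.79 with both. In the authors' deposited table its value on the TNF array was -1.40, and 0.98 on the combined array.

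**Figure D1:**
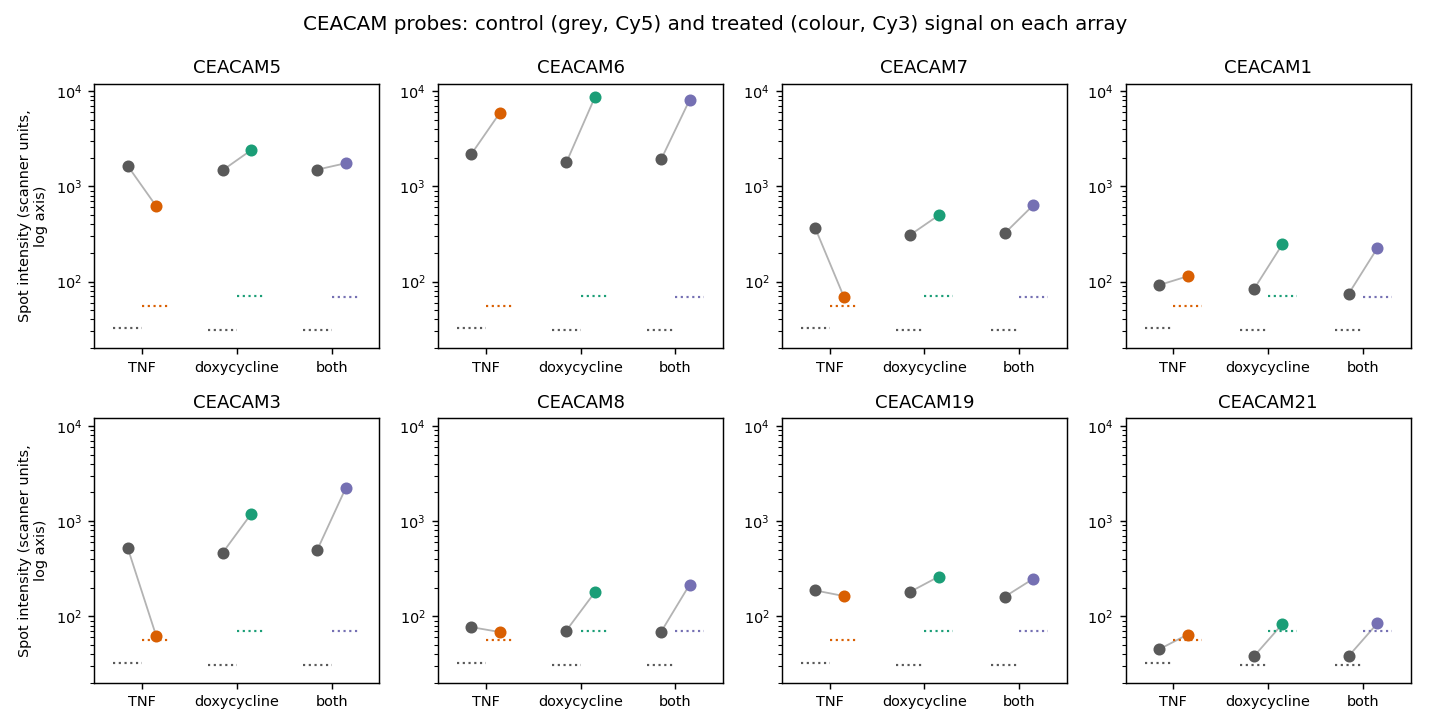
Spot intensity of the 8 CEACAM probes that passed the filter (log axis, scanner units, blank spots not subtracted) on the TNF, doxycycline and combined (both) arrays, with the untreated control in grey and the treated sample in colour, 1 spot per point; short dotted lines mark the 95th percentile of the blank spots in each channel. The control points keep their height across arrays, and the treated CEACAM3 and CEACAM7 points fall to near the blank spots on the TNF array.

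CEACAM1, the transmembrane member with inhibitory tyrosine motifs, was moderately higher where doxycycline was present. Control signals were 62.5 (TNF), 55.4 (doxycycline) and 46.9 (both), and treated signals 62.2, 181 and 160. The log2 ratios were 0.19 with TNF, 0.60 (1.51-fold) with doxycycline and 0.55 (1.47-fold) with both. The last 2 lay above 96.1% and 90.6% of all genes without reaching 2-fold. Over the alternative settings the doxycycline value ran from 0.39 to 0.85 and the combined value from 0.42 to 0.86. The TNF value was -0.012 with median centring. TNF on top of doxycycline gave -0.05, and 0.029 with the scanner's local background, so that the signs of these small values depended on the processing.

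CEACAM3, a receptor by which granulocytes take up bacteria, gave the widest spread of ratios. Control signals were 495, 436 and 475, and treated signals 11.2, 1118 and 2179, so that the same probe was near the blank spots on the TNF array and well above its control on the combined array. The log2 ratio was -2.95 (7.73-fold lower) with TNF, 0.44 with doxycycline and 1.29 (2.45-fold higher) with both. TNF on top of doxycycline gave 0.85 (1.81-fold), above 98.3% of all genes and short of 2-fold. The lower value with TNF was -5.39 in the authors' deposited table.

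The signal of the CEACAM3 probe in an epithelial line was set beside granulocyte markers. Of 10 such markers 8 had a probe, 5 were above background in the control channel of all 3 arrays and CXCR2 and S100A12 were in none. Control signals over the blank spots were 77.7 to 94.3 for CSF3R, the receptor of granulocyte colony-stimulating factor, 19.4 to 25.3 for AZU1 and 4.34 to 5.69 for MPO, both of which encode granule proteins. The summed signal of the 8 genes was 123 to 145 in the control channels. In the TNF, doxycycline and combined samples it was 112, 206 and 204, with CSF3R making up most of it. Of 6 measured, 0 were past 2-fold on any array. Except for CSF3R these were dim beside the offset of 50, so a 2-fold loss could hardly be reached. The count therefore does not show that they were unchanged. Among all genes, 1.80% were higher and 12.3% lower with TNF, 1.18% and 0.406% with doxycycline, and 3.17% and 2.13% with both. Of other leukocyte markers 2 of 5 with a probe (CD14 and CD68), and of fibroblast and endothelium markers 3 of 6, were above background in every control channel. PTPRC, the common leukocyte antigen, was not above background in any channel. CEACAM genes resemble each other in sequence, and probe sequences were not used here, so whether RNA of other family members bound to the CEACAM3 probe was not tested.

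CEACAM19 and CEACAM21 are transmembrane members with little known function. CEACAM19 had control signals of 158, 153 and 133 and treated signals of 112, 195 and 184, and log2 ratios of -0.24, -0.33 and -0.26. These were slightly below 0 on every array, although with median centring the combined value was 0.020. CEACAM21 had control signals of 15.6, 10.1 and 10.5 and treated signals of 12.9, 17.7 and 19.7, near the blank spots, and log2 ratios of 0.04, -0.02 and -0.02. Its other probe was not above background in the control channel of any array, and the treated channel was so only on the combined array, which allows no more than a ratio of at least 1.08-fold higher. At such signals a change of CEACAM21 could not be measured.

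**Figure D2:**
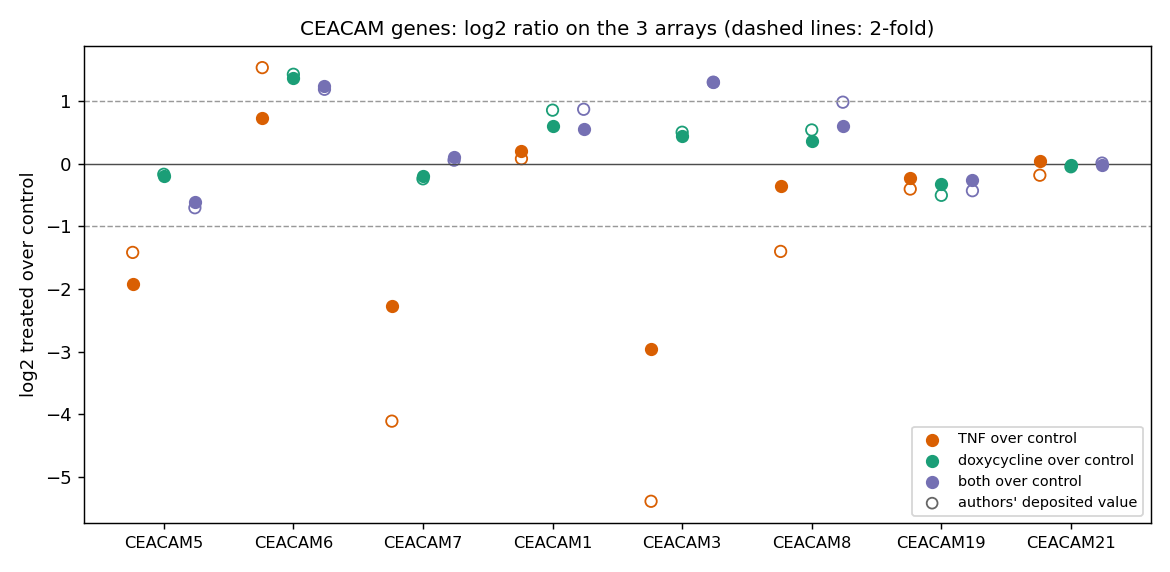
Log2 ratio of treated over control (vertical axis) for the 8 CEACAM genes on the TNF (orange), doxycycline (green) and combined (purple) arrays; filled points are the values given in the text, open points the authors' deposited values, and dashed lines mark 2-fold. CEACAM6 is above the upper line with doxycycline and with both, and CEACAM3, CEACAM5 and CEACAM7 are below the lower line with TNF alone.

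Counted over the family, 0 of 8 members were at least 2-fold higher and 3 (CEACAM3, CEACAM5 and CEACAM7) at least 2-fold lower with TNF, where 1.80% of all genes were higher and 12.3% lower. The members had a median log2 ratio of -0.29 against -0.01 for all genes. With doxycycline 1 member was higher (CEACAM6) and 0 were lower, against 1.18% of all genes higher and 0.406% lower. The median was 0.17 against 0.01. With both treatments 2 were higher (CEACAM3 and CEACAM6) and 0 lower, against 3.17% and 2.13% of all genes, and the median was 0.33 against 0.00 for all genes. These counts describe the arrays, and with 8 genes a single member moves the share by more than most of these backgrounds.

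TNF on top of doxycycline, which does not use the TNF array, took 0 of 8 members past 2-fold in either direction, against 1.18% of all genes higher and 0.909% lower. The member values ran from -0.40 (CEACAM5) to 0.85 (CEACAM3), with a median of 0.03. The 3 members that were lower on the TNF array therefore stood at 0.85 (CEACAM3), 0.31 (CEACAM7) and -0.40 (CEACAM5) in this reading. Ratios 4-fold or more below control were seen with TNF for 9.28% of bright probes, as given above, and whether the 3 low ratios share anything with these was not tested.

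Doxycycline on top of TNF, the combined ratio less the TNF ratio, put the same 3 genes at 4.24 (CEACAM3), 2.38 (CEACAM7) and 1.32 (CEACAM5), against 14.0% of all genes higher and 3.29% lower. This reading holds the low TNF values with the sign turned. CEACAM5 fell short of 2-fold in it with the scanner's local background (0.96) and in the authors' deposited table (0.71), and CEACAM8, at 0.95, passed 2-fold under 4 of 9 alternatives, up to 2.38. CEACAM6 stood at 0.52 and CEACAM1 at 0.36 in it, so that both kept the direction they had with doxycycline over control, at 1.36 and 0.60. For CEACAM6 this turned to -0.35 in the authors' deposited table, where its value with TNF alone was higher than with both.

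Against the sum of the single treatments on the log2 scale, the combined value of CEACAM6 was 0.84 lower (-0.84) and that of CEACAM1 0.24 lower (-0.24). CEACAM3, CEACAM7 and CEACAM5 were above the sum by 3.81, 2.58 and 1.53, again with the low TNF values inside it. The value of CEACAM5 was under 1 log2 unit with the scanner's local background (0.91), with median centring (0.96) and in the authors' deposited table (0.88). Of all genes, 14.0% were above the sum by 1 log2 unit or more and 5.11% below.

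**Figure D3:**
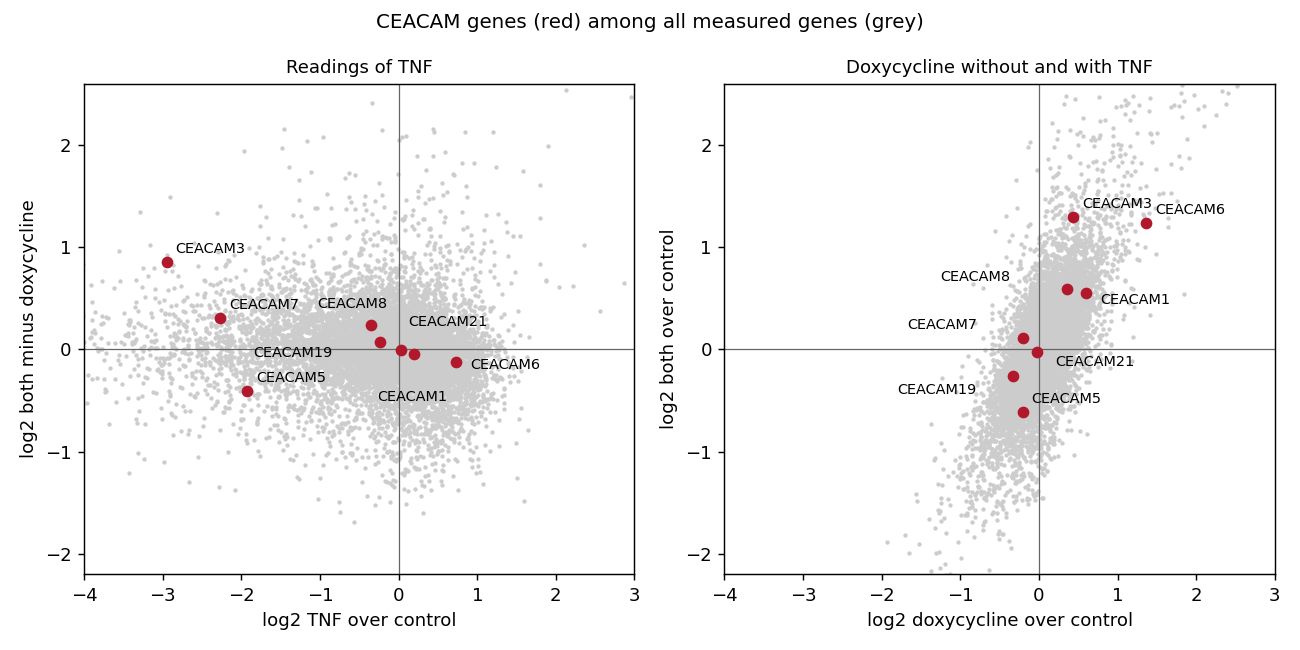
Left, log2 TNF over control (horizontal) against the combined minus the doxycycline array (vertical); right, log2 doxycycline over control (horizontal) against both over control (vertical), with CEACAM genes in red and the measured genes in grey (genes beyond the axes are not drawn). On the left CEACAM3, CEACAM5 and CEACAM7 lie far to the left while their vertical values stay between -0.40 and 0.85; on the right CEACAM6 has the highest horizontal value of the family and CEACAM3 lies highest for its horizontal value. The axes of the right panel share control RNA of the same kind.

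The genes nearest to each member in the 3 ratios, by Euclidean distance over the 3 arrays among 13058 other genes above background in both channels throughout, were as follows. For CEACAM6 these were OSBPL10 (distance 0.24), IER3 (0.24) and DYNLT3 (0.27), and OSBPL10 had ratios of 0.95 (TNF), 1.34 (doxycycline) and 1.31 (both). AXIN2 lay closest to CEACAM5 (0.047), followed by HNRNPA3 (0.088) and PKP3 (0.098). AXIN2 had ratios of -1.96, -0.17 and -0.61. BSG (0.060), CSNK1E (0.083) and MAGEA3 (0.11) were closest to CEACAM7. CEACAM3 had no neighbour as close, with NBPF3 at 0.38, NBPF15 at 0.51 and EIF4A2 at 0.52. For CEACAM5, CEACAM7 and CEACAM3 the TNF ratio was the largest of the 3 in size. Log2 ratios from different probes of 1 gene scattered on the TNF array by an SD of 0.739, which exceeds every distance given here. The order of these neighbours is therefore uncertain, and shared behaviour was not tested.

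Other genes of the CEA family, the remaining CEACAM genes and the pregnancy-specific glycoprotein genes, were mostly near background. Of 14 listed 10 had a probe, 6 were measured and 4 were above background in the control channel of every array. Past 2-fold were 0 of the 6 on any array, and the medians were 0.00 (TNF), 0.06 (doxycycline) and 0.07 (both). Of all genes, 1.80% were higher and 12.3% lower with TNF, 1.18% and 0.406% with doxycycline, and 3.17% and 2.13% with both. However, the control signals of all 6 lay below the offset of 50, which leaves little room for a 2-fold loss. PSG8 gave 48.3 for the control and 0.65 for the treated sample on the TNF array. Its log2 ratio there was only -0.76. Whether these genes were lower therefore cannot be read from the count or the medians.

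Genes that make and attach the GPI anchor, on which CEACAM5, CEACAM6, CEACAM7 and CEACAM8 depend, did not pass 2-fold with doxycycline or with both. The count was 0 of 26 in either direction, and the medians were -0.08 and -0.11. Of all genes, 1.18% were higher and 0.406% lower with doxycycline, and 3.17% and 2.13% with both. On the TNF array 5 of the 26 were lower and 1 higher, with a median of -0.23, where 12.3% of all genes were lower and 1.80% higher. The lower ones included DPM2 at -2.41 and GPAA1, a subunit of the transamidase that attaches the anchor, at -2.29. Their TNF-treated signals were near the blank spots, at 30.3 and 20.4, against control signals of 426 and 321. The higher one was PIGA at 1.12.

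Among 14 measured partners of CEACAM signalling, CTNNB1, the gene of beta-catenin, stood at -4.10 with TNF, 0.17 with doxycycline and 1.36 with both. Its TNF-treated signal was 62.6 against a control signal of 1645. This was on the array where 9.28% of bright probes were 4-fold or more below control, and a link with these was not tested. CTNNB1 was the only 1 of the 14 past 2-fold with both, where 3.17% of all genes were higher. ITGB1 (-1.53) and SRC (-1.19), a kinase that phosphorylates the CEACAM1 tail, were the other members of this list past 2-fold with TNF. That made 3 of 14 lower against 12.3% of all genes. With doxycycline 0 of 14 passed, against 1.18% of all genes higher and 0.406% lower. PTPN6, the phosphatase SHP-1 recruited by CEACAM1, stood at 0.76, 0.39 and 0.81.

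Other epithelial and immunoglobulin-fold adhesion genes gave 1 of 20 higher and 1 lower with both treatments, against 3.17% and 2.13% of all genes. With doxycycline they gave 0 in either direction, against 1.18% of all genes higher and 0.406% lower. The higher one was ALCAM at 1.50 (0.40 with doxycycline) and the lower one ICAM3 at -1.64. With TNF alone ICAM1, an NF-kB target, stood at 1.27 and ICAM2 at 1.39, and 3 were lower, against 1.80% of all genes higher and 12.3% lower. CDH1, the gene of E-cadherin, was among the lower ones at -1.75, and stood at 0.70 with both.

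Of 9 transcription factors described at CEACAM promoters, IRF1, an interferon regulatory factor, stood at -0.17 (TNF), 0.48 (doxycycline) and 1.45 (both), and NFKB1, a subunit of NF-kB, at 0.24, 0.20 and 1.32. These were the 2 higher with both, against 3.17% of all genes, and 0 were lower, against 2.13%. TNF on top of doxycycline gave 0.96 for IRF1 and 1.12 for NFKB1. With TNF alone 0 of the 9 were higher and 3 lower (USF1, USF2 and SP3), against 1.80% and 12.3% of all genes. SP3 stood at -1.38 there, with a treated signal of 14.2 against a control signal of 150. USF1 and USF2 are known to bind E-boxes of the sequence shown above, and binding was not measured here. USF2 stood at -1.80 with TNF and -0.30 with both. USF1 stood at 0.49 with both. Its TNF-treated signal was not above background, against a control signal of 114, so it counts as lower there without a value. With doxycycline 0 of the 9 were past 2-fold, against 1.18% of all genes higher and 0.406% lower.

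**Figure D4:**
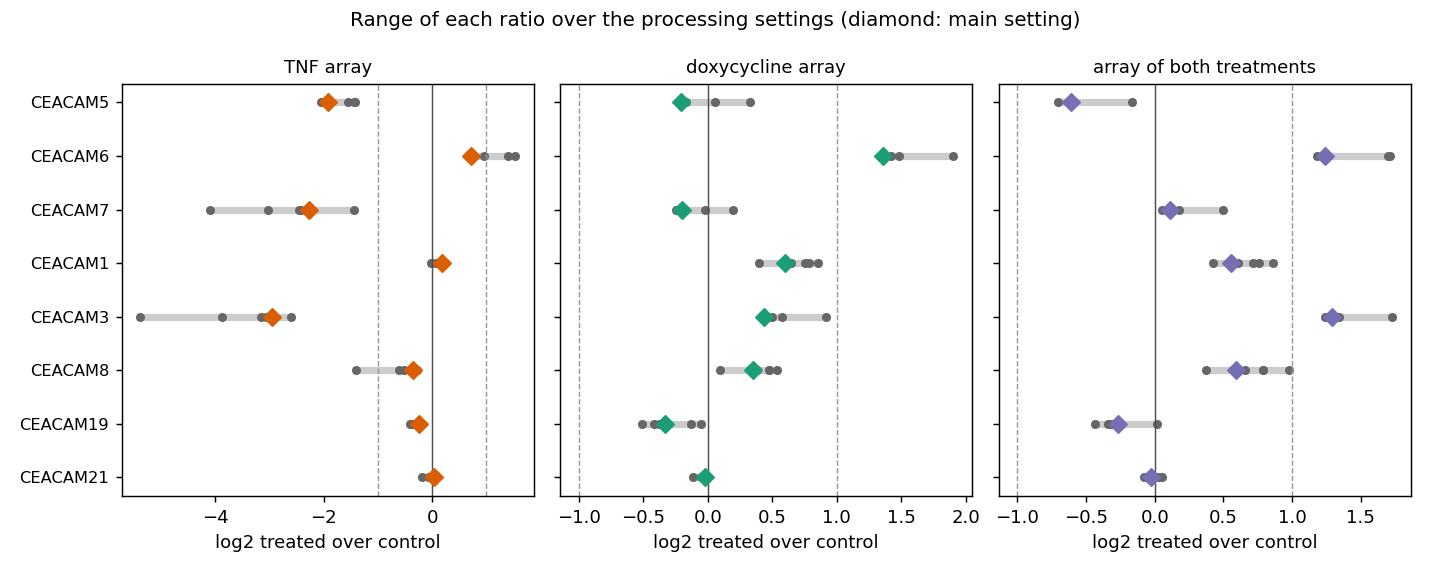
Log2 ratio of treated over control (horizontal axis) of each CEACAM gene on the TNF, doxycycline and combined arrays under the main setting (diamond) and 9 alternative settings (small points, grey bar for the range); dashed lines mark 2-fold. CEACAM6 stays above 2-fold with doxycycline (1.36 to 1.90) and with both (1.18 to 1.72), and CEACAM3 on the TNF array spreads from -5.39 to -2.61.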

How the data were processed

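Amino allyl aRNA was made from total RNA and hybridised to 3 arrays, per the labels. The deposited scanner files hold the median intensity of each spot at 635 nm (Cy5) and 532 nm (Cy3), combined from scans at 3 gains per the file headers. The authors deposited a table of log2 ratios as well. All of its values (18330 for TNF, 19535 for doxycycline and 19605 for both) equalled, to within 0.001, log2 of Cy3 over Cy5, each less the blank mean, centred on the median, which gave the direction as treated over control.

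Background was the mean of 2680 blank spots with 5% trimmed at each end, corrected by normexp (offset 50), and loess was run within each array (R 4.3.3, limma 3.58.1), control spots having no weight. Background ended at the 95th percentile of the blanks. A probe was kept if on all arrays it passed this in either channel, 3 flagged probes were dropped, and probes of 1 gene were averaged. Symbols (20236 probes with 1, 4224 with none, 2899 updated) followed the platform annotation and RefSeq. Alternatives were no background correction, the scanner's local background, an offset of 16, median centring, Aquantile, other filters on dim probes, the brightest probe of each gene and the authors' deposited ratios. Python 3.11.15, pandas 2.3.3 and Biopython 1.88 were used. The normalisation was tested on simulated data. The number of arrays limits the precision.

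Named genes were all members, the 3 nearest genes of each member with a 2-fold ratio, up to 4 genes of each list past 2-fold with both treatments, and treatment checks. List genes named from the TNF array, PTPN6, CSF3R, AZU1, MPO, KRT19, CD68 and the neighbours on chromosome 19 were chosen after their values were seen. The members and lists were chosen with earlier results of these data known.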

Additional observations from a re-analysis of the deposited data

Results flagged for a closer look

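The 2 readings of TNF pointed in opposite directions for a pair of members: CEACAM3 stood at -2.95 over control and at 0.85 on top of doxycycline, and CEACAM7 at -2.27 and 0.31. For doxycycline, CEACAM5 stood at -0.21 over control and at 1.32 on top of TNF, and CEACAM7 at -0.20 and 2.38. Each pair holds the TNF array on 1 side, with 1 array per value, and the difference was not tested. With median centring the doxycycline values over control were 0.32 for CEACAM5 and 0.20 for CEACAM7, no longer opposite in sign.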

How the results depend on the processing

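Of 108 counts of CEACAM genes past 2-fold under 9 alternatives, 104 were within 1.5 times the main count, which lets a count of 3 move to 2 or 4. Within that limit CEACAM5 dropped out and CEACAM8 came in for doxycycline on top of TNF and for the sum, and CEACAM8 was lower with TNF in the authors' values. The other changes concern CEACAM6. With median centring and in the authors' deposited log2 ratios, 1 member in place of 0 was at least 2-fold higher with TNF, and 1 in place of 0 was below the sum of the single treatments by 1 log2 unit or more. No ratio past 2-fold changed its sign among the 8 genes in any alternative run. Aquantile leaves ratios as they are by construction. Over all genes, 262 were higher and 1790 lower with TNF, against 761 and 1804 with median centring and 1937 and 3059 in the authors' values. With doxycycline the split was 171 and 59, against 540 and 19 with median centring, where the median of all genes was 0.14 (0.13 on the combined array, against 965 higher and 135 lower there and 460 and 310 in the main setting). With the local background, TNF on top of doxycycline gave 166 higher and 194 lower, against 172 and 132, and doxycycline over control 226 and 43. For doxycycline on top of TNF the authors' values gave 3424 and 2062, against 2036 and 478. The same table gave 537 and 203 with doxycycline, 1214 and 785 with both, and 568 and 494 for TNF on top of doxycycline, where an offset of 16 gave 258 and 218. No replicate could be left out, and no paired analysis was possible because each condition held 1 array. Signals near the blanks limit CEACAM21 and CEACAM8, and the TNF values of CEACAM3 and CEACAM7, most.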

Other observations

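Between CEACAM21 and CEACAM19 on chromosome 19 lie 63 protein-coding genes of other families, of which 44 were measured. With doxycycline 0 of these were past 2-fold, with both treatments 1 was higher and 2 lower, and with TNF 5 were lower and 0 higher. Of all genes, 1.18% were higher and 0.406% lower with doxycycline, 3.17% and 2.13% with both, and 1.80% and 12.3% with TNF. BCL3, an IkB family protein that acts in the nucleus, was the nearest measured gene outside the CEA family on 1 side of CEACAM19. It stood at 1.54 with TNF, 0.18 with doxycycline and 1.29 with both, while CEACAM19 itself stood at -0.24, -0.33 and -0.26. PVR, an adhesion receptor on the other side, stood at -0.48, 0.15 and -0.14. The genes that flank the group of CEACAM21, CEACAM7, CEACAM5, CEACAM6 and CEACAM3, DMAC2 and LYPD4, stood at -0.22 and -0.02 with doxycycline, where CEACAM6 was at 1.36.

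KRT19, a keratin of simple epithelia and 1 of the colon epithelium markers, stood at -1.45 with TNF, 1.42 with doxycycline and 2.12 with both. CD68, a lysosomal protein known from macrophages, stood at 1.21, 0.48 and 1.19, with control signals of 102 to 128 over the blank spots.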
